A study of Hippophae rhamnoides with 3 samples.

Results

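Antisense tags of seabuckthorn (Hippophae rhamnoides L.) leaf genes are described here, that is, short sequence tags that match the reverse strand of exactly 1 reference gene. Members were taken by strand label among the listed tags, which the authors had called changed between a pair of libraries. Beyond that call no measured value was used. There were 7296 such tags, on 6506 genes, among 30829 distinct listed tags in all. Another 8217 tags matched exactly 1 gene in the sense direction, 146 antisense tags matched several genes, and 14909 tags matched no gene. The tags came from leaves of plantlets 30 days old that had been raised at 28°C under long days. The control library (CON) was held at 28°C for 6 h, the cold stress library (CS) at 4°C for 6 h and the freeze stress library (FS) at -10°C for 6 h. Each condition had 1 library and the number of plantlets behind it is not given in the sources used here, so no difference below has a replicate check. The 3 comparisons pair each library with each other one, CON vs CS, CS vs FS and CON vs FS, and share libraries.

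DeepSAGE counts a transcript by a tag. cDNA made on oligo(dT) beads is cut by NlaIII at CATG, and the 17 bases that follow the CATG site nearest the bead are sequenced, 21 bases in all. A transcript read from the usual strand of a gene therefore gives a sense tag, and a transcript of the opposite strand gives an antisense tag that starts at the same palindromic site and runs the other way. Natural antisense transcripts are known from many plant genes. They arise from overlapping neighbour genes or from promoters of their own, and some of them lower or raise the level of the sense transcript by acting on chromatin, on splicing or through small RNAs. In chloroplasts, transcription runs through many genes on both strands and much RNA is trimmed afterwards. The strand label rests on the orientation in which the reference gene was stored, and a transcript of the opposite strand cannot be told apart here from a reference gene stored in reverse.

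Some tags that the results turn on are shown first, each read 5′ to 3′ with the NlaIII site in capitals and its site counted from the 3′ end of the reference gene. The first pair are the antisense and the sense tag of site 1 of Unigene113620_All (best hit Hsp20.1, a small heat shock protein), a gene whose antisense tag was far above its sense tag.
Unigene113620_All, antisense, site 1: CATGaggaggttcagattgcc
Unigene113620_All, sense, site 1: CATGaacttcccactgctcct
The next pair belong to site 1 of Unigene10610_All (photosystem II protein D1, a chloroplast-encoded reaction centre protein), where the order of the strands changed between libraries.
Unigene10610_All, antisense, site 1: CATGactgcaattttagagag
Unigene10610_All, sense, site 1: CATGgtaaaatcttggtttat
The third set holds the antisense tags with the steepest rises in CON vs CS among named genes with at least 10 copies in the lower library, of a hypothetical protein that the tables place in the plastid and of a UDP-glucuronosyltransferase.
Unigene38023_All, antisense, site 2: CATGgggacgtaaaaaaggaa
Unigene20113_All, antisense, site 3: CATGcattggaaaattatggc
The last pair come from different genes whose best hits are both pyridoxine biosynthesis proteins (PDX1 in the second), enzymes of vitamin B6 synthesis, and carry opposite strand labels although their sequences differ at only 2 of 17 bases (C7T and T19C, with the base of the antisense tag first and positions counted from 1 at the 5′ end of the tag).
Unigene34060_All, antisense, site 3: CATGgacgatgatgaagtttt
Unigene47947_All, sense, site 1: CATGgatgatgatgaagtctt

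The tables list only tags that the authors called between a pair of libraries, with a change of at least 2-fold. The smallest change among tags with copies in both libraries was 0.9986 on the log2 scale, in CS vs FS. A tag's copies in a library are thus known only where a table with that library lists it, and a gene's sum covers its listed tags alone. Library totals, as implied by the deposited counts and TPM (copies per 1000000 clean tags), were 11566380 clean tags for CON, 12010123 for CS and 11908614 for FS. A count of 0 was put at a limit of 3 copies per library, equal to 0.25 to 0.259 TPM. Intervals below are exact 95% intervals (Clopper-Pearson) and, like that limit, cover counting error only, as amplified reads were not tied to single molecules. Leaf markers were listed as sense genes, with summed levels of 648, 113 and 521 TPM in CON, CS and FS for the 1 listed Rubisco small chain gene and of 3850, 1480 and 1760 TPM for the 5 chlorophyll a/b binding genes, not all of which had a count in every library. Carbonic anhydrase (2 genes) was at 311, 109 and 967 TPM, and photosystem subunits (21 genes), which include chloroplast-encoded ones, at 614, 1340 and 2050 TPM. No Rubisco activase gene was listed. Genes named for seed storage (2 genes, 24, 57.6 and 19.6 TPM), nodulins (3 genes, 6.31, 39.5 and 18.1 TPM) or pollen (4 genes, 44.1, 287 and 176 TPM) were lower than the chlorophyll a/b binding genes in every library, though the pollen-named genes were above the Rubisco small chain in CS and higher in CS and FS than in CON. Their part in the results was not tested. The FS library stood apart from the others in the balance of the strands, so values that rest on it are given beside CON vs CS, which does not use it. In bulk leaf RNA, fewer cells of a type and less RNA per cell cannot be told apart.

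Names were available for a minority of members, and the way a name was obtained chose among them. A best hit is given only in the gene tables, which hold genes whose summed sense tags were called in at least 1 setup. Of the 7296 antisense tags, 1498 (20.53%), on 1202 genes, had a named best hit. A further 705 tags lay on 615 genes of those tables with no best hit, and 5093 tags lay on 4689 genes that those tables do not hold. Named genes are therefore genes with a changed sense signal, and their antisense tags cannot stand for all members. Most of these genes had a single listed antisense tag, and antisense tags with no called change are not in this count. Exactly 1 antisense tag was listed for 5826 genes, 2 for 588 genes, and 3 or more for 92 genes, up to 7 for the maturase K gene described below.

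The antisense share of listed tags was nearly the same in the 3 setups. Of the tags that match exactly 1 gene, 47.01% were antisense in CON vs CS, 47.21% in CON vs FS and 47.18% in CS vs FS. Among tags of named genes the share was 27.45%, 23.78% and 23.39%. For 4776 genes (73.41%) antisense tags alone were listed, and for 1730 genes (26.59%) tags of both strands were listed. In named genes the order was the other way round, with 942 genes (78.37%) on both strands, as the naming rule demands a sense signal.

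In copies, antisense tags weighed about as much as sense tags. The listed antisense tags held 11.31%, 12.28% and 9.733% of all clean tags of CON, CS and FS, and the listed sense tags 12.47%, 12.47% and 11.4%. A typical antisense tag had 70 copies in CON (quartiles 24 and 177), 73 in CS (28 and 189) and 68 in FS (30 and 160). The medians of sense tags were 66, 67 and 66 copies. More than 1000 copies were reached by 213, 227 and 196 antisense tags in the same order.

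Within a gene the strands were rarely balanced. Where tags of both strands had a count, antisense copies exceeded sense copies in 644 of 1287 genes in CON (50.04%, interval 47.27 to 52.81), in 671 of 1342 genes in CS (50%, interval 47.29 to 52.71) and in 608 of 1300 genes in FS (46.77%, interval 44.03 to 49.52). The median log2 ratio of antisense to sense was 0.03, -0.01 and -0.26 in the same order, but the quartiles lay at -2.95 and 2.91 in CON, -3.02 and 3.12 in CS and -2.41 and 2.23 in FS. So 1 strand, about as often the antisense as the sense, carried most copies of a gene. The strands differed by less than 2-fold in only 12.35% of genes in CON, 12.74% in CS and 21.54% in FS. A difference of over 8-fold was seen in 48.17%, 51.42% and 33% of genes.

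**Figure D1:**
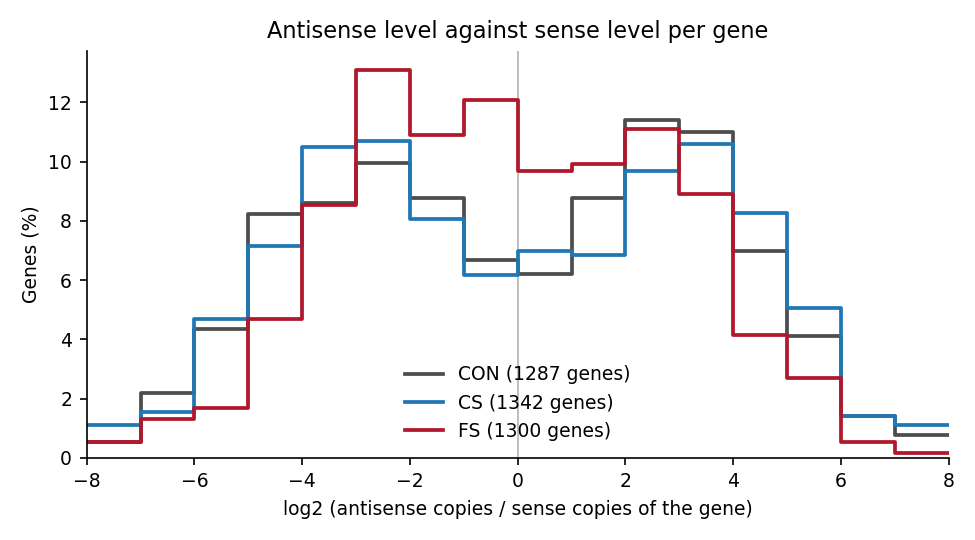
Share of genes (vertical axis, percent) by the log2 ratio of antisense to sense copies of the gene (horizontal axis, bins of 1, with values beyond the axis put in the end bins), for the 3 libraries. CON and CS have a dip at 0 and humps on either side, and FS has more genes near 0, with 21.54% within 2-fold against 12.35% in CON and 12.74% in CS.

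To hold the genes fixed, 650 genes with counts on both strands in every library were compared. The tags summed for a gene were not held fixed, as a tag with no listed count in a library is missing from that sum. A changed ratio or order can therefore come from a missing tag. The median size of the log2 ratio between strands was 2.92 in CON, 3.01 in CS and 2.38 in FS, and 84, 79 and 137 of these genes lay within 2-fold. The weaker strand held 8.4%, 8.28% and 13.3% of the summed copies of these genes. The strand that led was mostly kept. Antisense was higher in all 3 libraries for 261 genes, sense in all 3 for 282 genes, and the order was mixed for 107 genes (16.46%). Between CON and CS the order changed in 51 genes (7.85%), between CON and FS in 84 (12.9%) and between CS and FS in 81 (12.5%). Why FS differed was not tested.

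The strands differed in position along the gene. Sites are numbered from the 3′ end of the reference gene, and the same number was taken as the same CATG on both strands. This was checked on tags that hold a further CATG and so reach into the next site. All 143 such overlaps within a strand matched, and so did all 7 between the strands. The site nearest the 3′ end, where oligo(dT) capture puts most tags of a sense transcript, held 71.74% of sense tags (interval 70.75 to 72.71) but 35.46% of antisense tags (interval 34.36 to 36.57). Antisense tags lay at site 2 in 22.18% of cases, at sites 3 to 5 in 27.26% and at site 6 or beyond in 15.1%, up to site 33. Sites 6 and beyond held 2.714% of sense tags. The number of sites in a gene is not known here, so the distance of a tag from the 5′ end cannot be given. By copies, site 1 took 41.2% of antisense copies in CON, 44% in CS and 40.6% in FS, against 80.8%, 82.4% and 83.7% of sense copies.

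**Figure D2:**
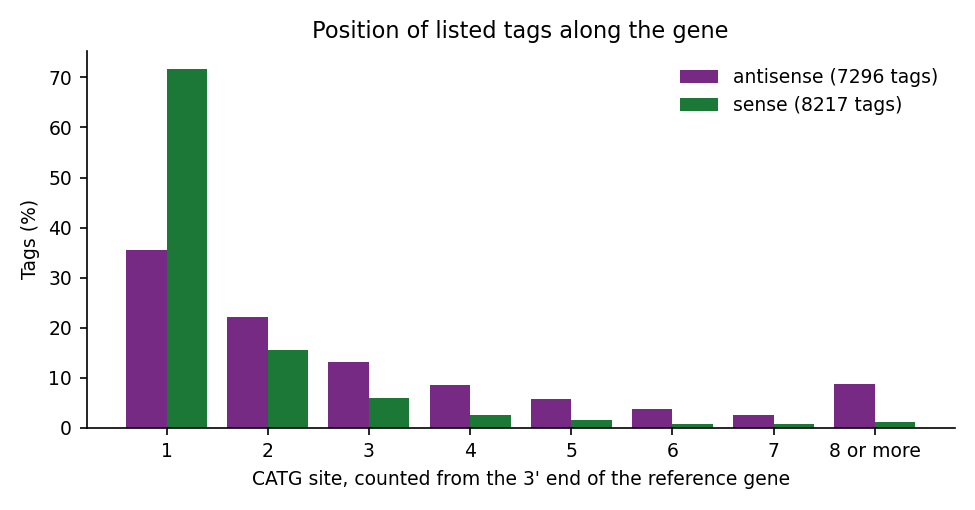
Share of distinct listed tags (vertical axis, percent) at each CATG site counted from the 3′ end of the reference gene (horizontal axis), antisense and sense tags side by side. Sense tags pile up at site 1 (71.74%), and antisense tags are spread over more site numbers, with 35.46% at site 1 and 15.1% at site 6 or beyond.

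Where a gene had tags of both strands, they often met at the same place. Of the 2104 antisense tags of such genes, 1248 (59.32%) started at a CATG site that also gave a sense tag, 551 (26.19%) lay at the next site and 305 (14.5%) farther away. Of those not at a shared site, 654 lay toward the 5′ end of the nearest sense tag and 202 toward the 3′ end. Most sense tags were at site 1, beyond which no site lies toward the 3′ end, so the numbering itself favours the 5′ side. Position went with strength. Antisense tags of genes in which the antisense strand was the stronger lay at site 1 in 32.89% of cases, close to the 33.15% of antisense tags on genes with no listed sense tag. Antisense tags of genes in which sense was the stronger lay there in 50.56% of cases. The stronger strand was judged here by the summed copies of each tag's highest library.

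Base content followed the stronger strand, not the strand label. Over the 17 bases after the site, antisense tags of the stronger strand had 35.31% T and 30.22% A, and sense tags of the stronger strand had 35.14% T and 30.49% A. On the weaker strand A was the more frequent base, with 34.02% A and 30.26% T in antisense tags and 35.98% A and 28.8% T in sense tags. G exceeded C on the stronger strand (19.03% and 15.44% in antisense tags, 18.69% and 15.68% in sense tags), and C exceeded G on the weaker strand (18.84% and 16.89%, 19.12% and 16.1%). Antisense tags with no listed sense partner had 34.43% T and 29.97% A, and sense tags with no antisense partner 33.45% T and 30.47% A. The tags of a shared site read away from it on either side and so cover different bases.

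Tags of similar sequence were not always labelled alike. Among tags of different genes, 38 pairs differed at 1 of the 17 bases, and the tags of every such pair had the same strand label. Of 142 pairs that differed at 2 bases, 60 (42.25%) had opposite labels. Both genes had a name in 34 of the 142 pairs, and 13 of those 34 (38.24%) had opposite labels. Most of these 13 pairs had unrelated best hits or hits of unknown function, an ACC synthase with a cinnamyl alcohol dehydrogenase for example. The share of opposite labels among unrelated tags was not computed, and antisense tags made up 47.01% to 47.21% of tags with 1 gene. Related best hits were found in the pairs that follow. In the pyridoxine biosynthesis pair printed above, chosen after its values were seen, the antisense tag of Unigene34060_All had 2900 copies in CON, 1350 in CS and 1035 in FS, and the sense tag of Unigene47947_All had 485, 301 and 131. Both were lower in FS than in CON. Opposite labels were also seen in genes of AP2/ERF transcription factors, a family of plant regulators with cold-responsive members, also chosen after its values were seen. The antisense tag of site 4 of Unigene154_All (CATGgtctctgtctcactcct) differed at 2 bases, G11T and T18G, from the sense tag of site 1 of Unigene53677_All (CATGgtctctttctcacgcct). Whether such a pair reflects antisense transcription of 1 copy or a reference gene stored in reverse was not tested.

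Over all members, antisense tags rose about as often as the sense tags of genes, of which 52.02% rose in CON vs CS, 48.18% in CON vs FS and 49.05% in CS vs FS. The share over all listed tags, which include those that match no gene, is given beside each value. In CON vs CS, 1906 of 3581 antisense tags rose (53.23%, interval 51.58 to 54.87), against 50.9% of all listed tags. In CON vs FS 1848 of 3881 rose (47.62%, interval 46.03 to 49.2, all listed tags 51.3%) and in CS vs FS 1779 of 3828 (46.47%, interval 44.88 to 48.07, all listed tags 52.8%). Setting the median of all listed tags to 0, a shift of about 1 on the log2 scale since no smaller change is listed, gave 79.8%, 80.3% and 26.4%. These shares cover only 2389, 2302 and 2785 antisense tags in the same order, so they are not directions of the same set of members. A change of 4-fold or more was reached by 40.21%, 35.89% and 36% of antisense tags, 39.73%, 37.97% and 37.04% of sense tags, and 46.3%, 44.0% and 42.8% of all listed tags. Rises were the larger changes, as they were among sense tags, where 1020 rose and 584 fell past that size in CON vs CS. Among antisense tags past that size, 927 rose and 513 fell in CON vs CS, 913 rose and 480 fell in CON vs FS, and 760 rose and 618 fell in CS vs FS.

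Antisense tags of named genes leaned further toward higher levels under stress. They rose in 558 of 940 cases in CON vs CS (59.36%, interval 56.14 to 62.52), in 510 of 771 in CON vs FS (66.15%, interval 62.69 to 69.49), and for CS vs FS in 409 of 764 (53.53%, interval 49.92 to 57.12). Sense tags of named genes rose in 51.25%, 54.55% and 54.45% of cases. The lean went with the gene table of the comparison. In CON vs FS, 74.1% of 637 antisense tags rose where the gene's sense sum was listed in that comparison, and 42.42% of 3244 where it was not. The shares were 59.67% of 1019 and 50.66% of 2562 in CON vs CS, and 53.37% of 652 and 45.06% of 3176 in CS vs FS. Of the 879 antisense tags of named genes with counts in all 3 libraries, 40.73% were highest in CS, 33.11% in FS and 26.17% in CON, and 47.9% were lowest in CON. Over all 3757 antisense tags with 3 counts the shares of the highest library were 36.97% for CS, 30.29% for FS and 32.74% for CON.

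Where tags of both strands of a gene were listed in the same comparison, they mostly moved together. Genes with a listed change on a single strand are not in these pairs. At a shared site of a named gene, the sense and the antisense tag changed in the same direction in 344 of 346 pairs in CON vs CS (99.42%), in 164 of 196 in CON vs FS (83.67%) and in 175 of 204 in CS vs FS (85.78%). Over all genes the shares at a shared site were 98.24%, 81.66% and 80.05%. The shares changed little with distance. Pairs from neighbouring sites agreed in 98.47%, 84.11% and 83.28% of cases and pairs from sites farther apart in 95.49%, 80.68% and 81.82%. In named genes the neighbouring sites agreed more often in CON vs FS, in 93.21% of pairs (interval 88.18 to 96.56). The Pearson correlation of the signed log2 ratios across pairs was 0.9 at shared sites and 0.81 farther away in CON vs CS. It was 0.66 and 0.47 in CON vs FS, and 0.67 and 0.65 in CS vs FS. As the ratios carry their sign, it reflects direction as well as size. Both tags of a pair were read in the same libraries, and pairs of a gene share it. The comparisons share libraries, so their shares are not independent of each other. At shared sites of named genes the median log2 size was 2.27 for the sense and 2.28 for the antisense tag in CON vs CS. The medians were 2.01 and 2.22 in CON vs FS, and 1.9 and 2.19 in CS vs FS. Medians do not compare the tags pair by pair.

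**Figure D3:**
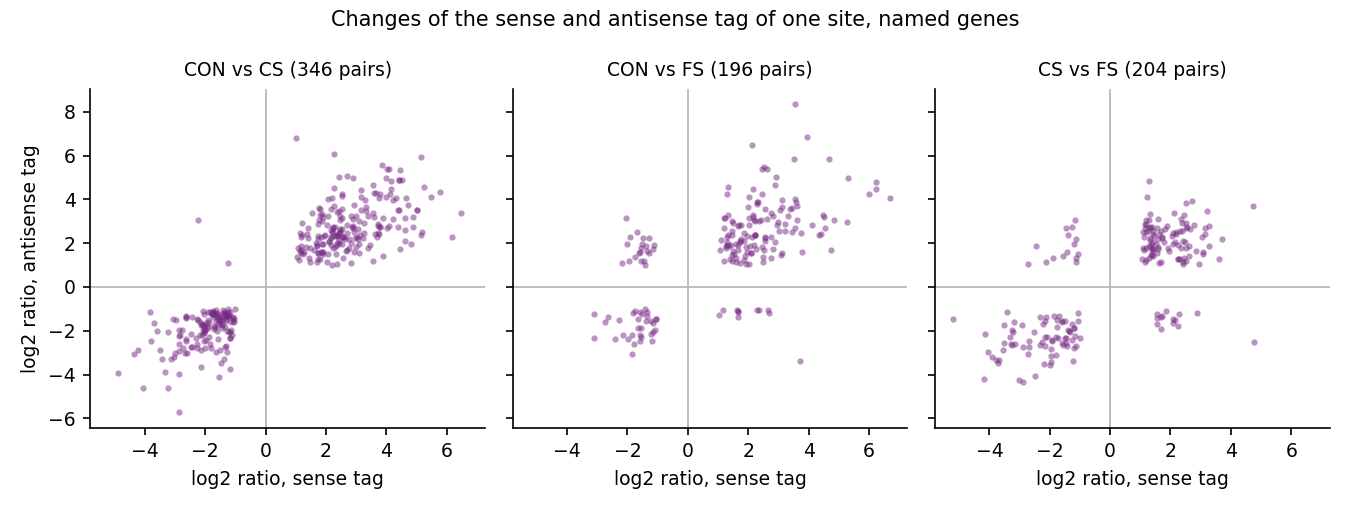
Log2 ratio of the antisense tag (vertical axis) against that of the sense tag of the same site (horizontal axis) in named genes, 1 point per site, for the 3 comparisons, with counts of 0 put at 3 copies. The empty band around 0 is set by the 2-fold limit of the tables, and the opposite quadrants hold 2 of 346 points in CON vs CS, 32 of 196 in CON vs FS and 29 of 204 in CS vs FS.

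By function, the antisense tags of chloroplast-encoded genes were the group with the clearest direction. The chloroplast genome codes for core subunits of both photosystems, of the cytochrome complex and of the ATP synthase, for the large chain of Rubisco and for its own RNA polymerase. This list was written after values had been seen, so its direction is a description. Antisense tags were listed for 20 of its 30 named genes, against 1202 of 5264 named genes in all (22.83%). All 39 of them listed for CON vs CS and all 42 listed for CON vs FS rose, with median log2 ratios of 3.27 and 3.46, counts of 0 put at 3 copies. Over the antisense tags of all named genes the medians were 1.52 and 1.61, and 59.36% and 66.15% rose. In CS vs FS 10 tags of the list rose and 1 fell (90.91% rose, all named genes 53.53%). The sense tags of the list also rose from CON, in 42 of 42 cases in CS and 40 of 40 in FS, but were mixed in CS vs FS, with 11 rises and 8 falls. All named genes were chosen through a changed sense signal.

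The maturase K gene (Unigene21671_All), whose protein helps to splice chloroplast introns, had more listed antisense tags than any other gene, with 7 of them between sites 1 and 9. The tag of site 1 had 15 copies in CON, 245 in CS and 427 in FS, and that of site 8 had 16, 180 and 104. The sense tag of site 1 had 0, 58 and 231 copies. At site 1 the antisense tag was thus the higher in every library. At site 7 sense led, with 76 copies against 19 in CS and 54 against 22 in FS. At sites 5 and 6 the leading strand differed between libraries.

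Photosystem II CP43 (Unigene116369_All), a core antenna protein, had 5 antisense tags, at each of sites 1 to 5. That of site 1 rose from 13 copies in CON to 209 in CS and 440 in FS. That of site 5 had 44, 131 and 244 copies, and the sense tag there 9 in CON and 39 in CS. RNA polymerase alpha subunit (Unigene33934_All) had 4 antisense tags, with no copy of any in CON and 20 to 89 copies each in CS and 36 to 128 in FS. The antisense tags of RNA polymerase beta' subunit-2 (Unigene43397_All) and of photosystem I P700 apoprotein A2 (Unigene49306_All), also 4 each, had 0 to 4 copies in CON.

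At site 1 of photosystem II protein D1 (Unigene10610_All) the antisense tag had 13 copies in CON, 824 in CS and 1534 in FS, while the sense tag had 58, 2157 and 919. Sense was the higher in CON and CS and antisense in FS. The antisense tag was 61-fold higher in CS (log2 5.93, interval 5.15 to 6.85) and 115-fold higher in FS (6.84, interval 6.06 to 7.75) than in CON. Rubisco large subunit (Unigene43829_All), which fixes carbon dioxide, had its levels mainly on the sense strand. Its 3 antisense tags were at 0 in CON and summed to 89 copies in FS. In CS the tag of site 5 had no count, and those of sites 1 and 7 summed to 53 copies. The listed sense tags summed to 22, 891 and 630 copies in CON, CS and FS.

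Among named genes the steepest rise from CON belonged to Unigene38023_All, whose best hit is a hypothetical protein that the tables place in the plastid. Its antisense tag of site 2 had 23 copies in CON, 3708 in CS and 7671 in FS. That is a log2 ratio of 7.28 (interval 6.69 to 7.94) in CON vs CS and 8.34 (interval 7.75 to 9) in CON vs FS. The sense tag of the same site had 0 copies in CON and 36 in FS, so antisense carried nearly all copies there, while at site 1 sense led with 124 copies in CS against 13.

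Nuclear genes of the photosystems and light-harvesting complexes moved the other way in the cold. Of the 11 listed genes left after the chloroplast-encoded ones were set aside, 7 had antisense tags (63.64%, all named genes 22.83%). This list too was written after values had been seen, so its direction is a description. Over all named genes 59.36% of antisense tags rose in CON vs CS, 66.15% in CON vs FS and 53.53% in CS vs FS. All 10 antisense tags of the 11 genes listed in CON vs CS fell, 3 of 4 fell in CON vs FS, and all 9 in CS vs FS rose. Of the sense tags of these 11 genes, 11 of 12 fell in CON vs CS. The whole photosystem and light-harvesting list, chloroplast-encoded genes included, had 21 rises and 10 falls in CON vs CS, against 18 and 3 in CON vs FS and 13 and 1 in CS vs FS.

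Photosystem II 22 kDa protein (Unigene15131_All), which senses acidity for the release of excess light energy as heat, had 10752 antisense copies in CON, 3511 in CS and 3982 in FS at site 1. The sense tag of that site had 1039, 380 and 519, lower by a log2 ratio of 3.37, 3.21 and 2.94. A chlorophyll a/b binding protein (Unigene116095_All) had 11410, 3859 and 7944 antisense copies at site 5, against 69, 16 and 85 sense copies. Both strands were lowest in CS. Early light induced protein (Unigene14090_All), which binds pigments under light and cold stress, had 9045, 4043 and 1596 antisense copies at site 2 and 182, 76 and 247 sense copies. From CS to FS the antisense copies went down and the sense copies up.

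Other light-harvesting genes had the opposite balance. The LHCII type I precursor gene (Unigene113799_All) had 690 antisense and 21326 sense copies in CON, 215 and 7500 in CS, and 189 and 19598 in FS. The Rubisco small chain (Unigene27359_All), the nuclear partner of the large chain, had 75 antisense copies in CON, 8 in CS and 32 in FS at site 3, with 1926, 777 and 1802 sense copies at that site. Carbonic anhydrase (Unigene114867_All), which interconverts carbon dioxide and bicarbonate, had 53, 7 and 48 antisense against 3503, 1177 and 11410 sense copies. In these genes the antisense tag stayed at a few percent of the sense tag or less. Photosystem I subunit PsaD (Unigene107233_All) and subunit III (Unigene115689_All), chosen once their values were known, also differed from each other. Subunit III had 6243 antisense copies in CON and 3234 in CS at site 2, above the 733 and 378 sense copies of site 1. PsaD had 114, 43 and 190 antisense and 1618, 811 and 489 sense copies at site 1.

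Antisense tags of heat shock proteins and chaperones were up in the cold and down again in FS. These proteins keep other proteins from clumping when they unfold. Antisense tags were listed for 17 of 39 genes (43.59%, all named genes 22.83%). In CON vs CS 16 rose and 1 fell (median log2 ratio 1.95), in CON vs FS 6 rose and 1 fell, and in CS vs FS 3 rose and 13 fell (median -2.04). The shares of rises were 94.12%, 85.71% and 18.75%, against 59.36%, 66.15% and 53.53% over the antisense tags of all named genes. Of the sense tags of the list, 21 of 25 rose in CON vs CS and 19 of 22 fell in CS vs FS. In CON vs FS the list's sense tags had 5 rises and 9 falls, against the 6 rises and 1 fall of its antisense tags. These counts are over all listed tags of each strand and not over pairs from the same gene.

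Small heat shock proteins held several of the highest antisense levels. The antisense tag of site 4 of the mitochondrial small heat shock protein gene (Unigene31833_All) had 16529 copies in CON, 25605 in CS and 5916 in FS. No sense tag was listed at that site. At site 2 the same gene had 67, 266 and 148 antisense and 23, 78 and 79 sense copies, and at site 3 sense led with 990 copies in CS against 112. The leading strand thus differed between its sites. Hsp20.1 (Unigene113620_All) had 8367, 19407 and 4633 antisense copies against 276, 795 and 139 sense copies at site 1. Its antisense to sense log2 ratio was 4.92 in CON (interval 4.75 to 5.1), 4.61 in CS (4.51 to 4.71) and 5.06 in FS (4.82 to 5.31), so the strands kept nearly the same proportion while both rose and fell. A heat shock protein (Unigene18923_All) had 3044, 10320 and 2518 antisense copies at site 2 and 345, 806 and 310 sense copies. In a further heat-shock protein gene (Unigene13139_All) the antisense tag stayed high in FS, with 1497, 7239 and 5977 copies, while the sense tag had 114, 529 and 180. Heat shock protein 81-1 (Unigene103226_All), of the Hsp90 family, had 34, 350 and 107 antisense copies and no listed sense tag. In a chaperonin subunit gene (Unigene40343_All) the strands moved in opposite directions from CS to FS while antisense stayed the higher, with 1076 antisense copies in CS and 370 in FS and 65 and 283 sense copies. The Hsp90 and chaperonin genes were chosen once their values were known.

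**Figure D4:**
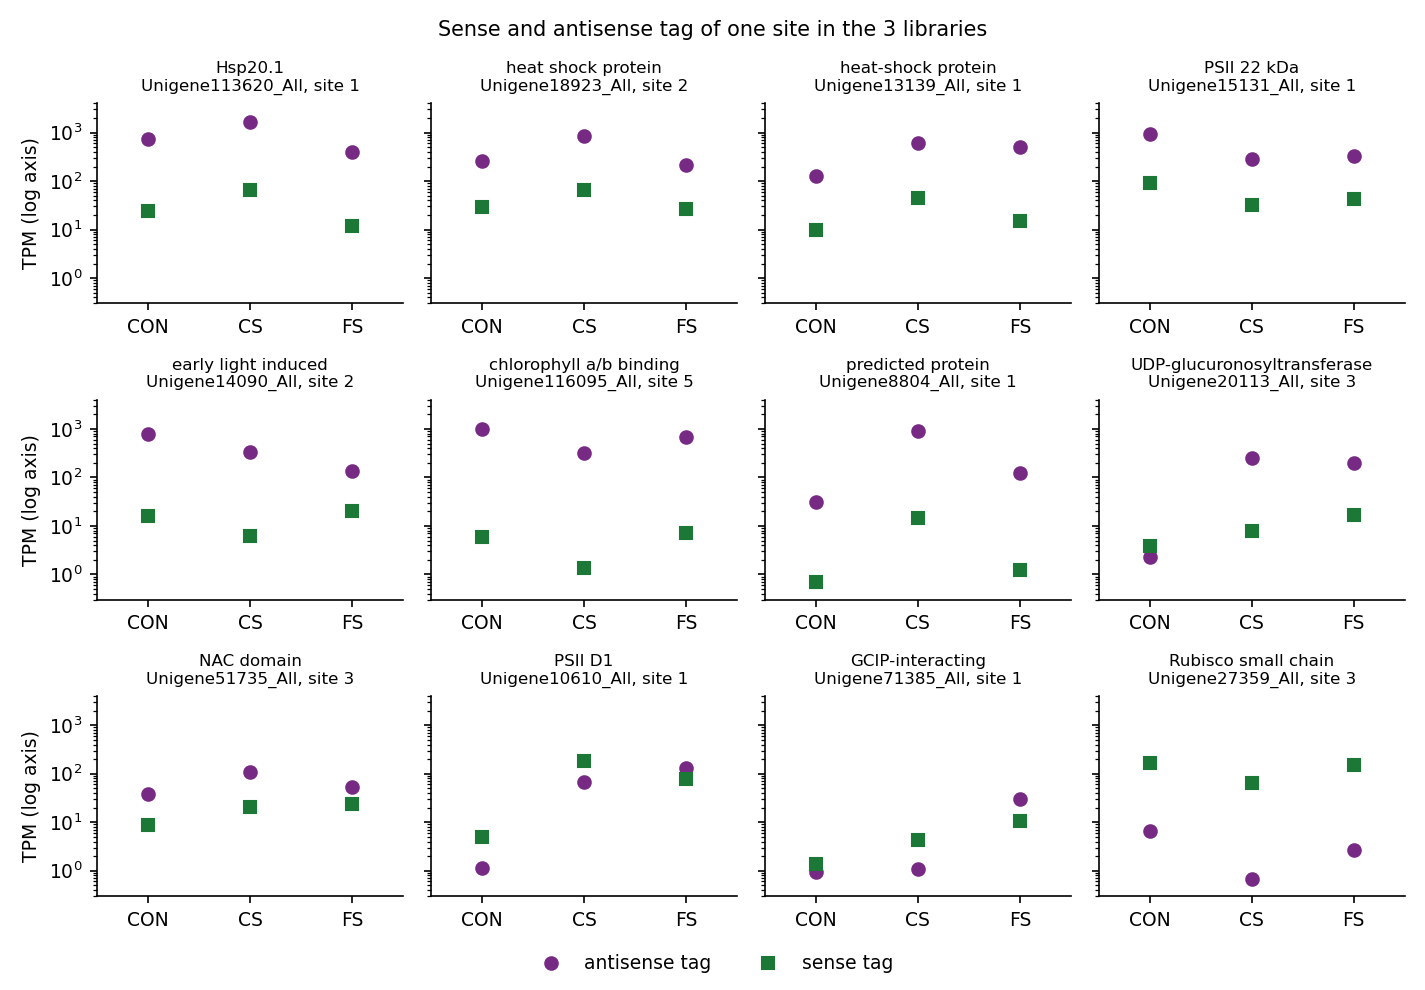
Level of the antisense tag (circles) and of the sense tag (squares) of the same CATG site in TPM on a log axis, in the 3 libraries, for 12 sites of named genes, 1 library per point. In Hsp20.1 and the photosystem II 22 kDa gene both strands move in parallel with antisense on top, in D1, the GCIP-interacting gene and the UDP-glucuronosyltransferase the order changes, and in the Rubisco small chain sense is on top throughout.

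Antisense tags of transcription factors, the regulators of other genes, were mostly higher under stress. They were listed for 52 of 147 genes (35.37%, all named genes 22.83%). In CON vs CS 37 rose and 8 fell (82.22% rose, all named genes 59.36%), in CON vs FS 35 rose and 4 fell (89.74%, all named genes 66.15%), and in CS vs FS 17 rose and 11 fell (60.71%, all named genes 53.53%). The sense tags of the list rose in 64 of 80 cases in CON vs CS and in 58 of 68 in CON vs FS, and were even in CS vs FS, with 26 rises and 26 falls. A NAC domain gene (Unigene51735_All), of a plant-specific family with many stress-responsive members, had 3 antisense tags. At site 4 it had 113 copies in CON, 343 in CS and 2270 in FS, so CON vs FS gave 4.29 on the log2 scale (interval 4.01 to 4.57). At site 3 it had 442, 1308 and 639 antisense and 102, 249 and 286 sense copies. The highest library therefore differed between neighbouring sites of the gene. The clock list had 1 gene with an antisense tag among 5, pseudo-response regulator 7 (Unigene10218_All), a repressor of morning clock genes, with 502, 209 and 202 copies.

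**Figure D5:**
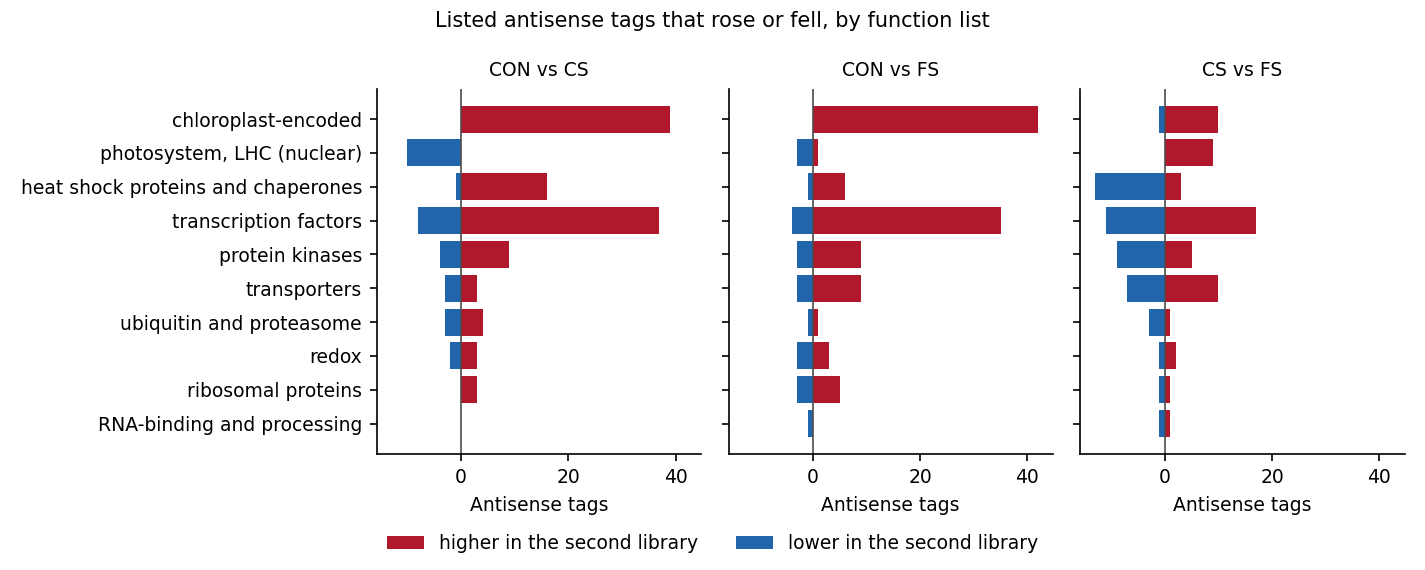
Number of listed antisense tags that were higher (right of 0) or lower (left of 0) in the second library of each comparison, for 10 lists of named genes, the chloroplast-encoded and the nuclear photosystem and light-harvesting (LHC) list being written after values were seen. Chloroplast-encoded genes had 39 rises and no fall in CON vs CS, nuclear photosystem genes 10 falls and no rise, and heat shock proteins turned from 16 rises and 1 fall in CON vs CS to 3 rises and 13 falls in CS vs FS.

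The remaining lists were smaller and less uniform. Protein kinases had antisense tags for 19 of 98 genes (19.39%, near the 22.83% of all named genes), with 9 rises and 4 falls in CON vs CS, against 9 and 3 in CON vs FS and 5 and 9 in CS vs FS. Transporters had antisense tags for 20 of 99 genes (20.2%), with 3 rises and 3 falls, 9 and 3, and 10 and 7. Rises made up 69.23%, 75% and 35.71% of the kinase tags and 50%, 75% and 58.82% of the transporter tags. Over all named genes the shares were 59.36%, 66.15% and 53.53%. The lists of ubiquitin and proteasome (7 of 49 genes), redox (8 of 23), ribosomal proteins (8 of 27), RNA-binding and processing (2 of 18) and Rubisco and Calvin cycle (2 of 5) had at most 8 antisense tags in any comparison, and the 5 named mobile elements had none. A gene could count in several lists. A putative protein kinase (Unigene30909_All) had 700, 656 and 1445 antisense copies at site 2, and an ERD6-like sugar transporter (Unigene32195_All) 251 in CON and 555 in FS at site 7. A DHAR class glutathione transferase (Unigene13093_All), of a family that regenerates vitamin C, had 523, 357 and 138 antisense and 70, 25 and 79 sense copies at site 2. Ribosomal protein S4 (Unigene11813_All) had 6, 58 and 32 antisense copies at site 2. A ubiquitin-protein ligase (Unigene22016_All), which marks proteins for breakdown, had 88, 307 and 99 antisense copies at site 10, and the splicing factor ini1 gene (Unigene55080_All) 258, 279 and 121 at site 1.

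Genes with no known function made up most named members, with antisense tags on 770 of 3568 genes (21.58%), near the share of all named genes. These tags rose in 330 and fell in 229 cases in CON vs CS, against 287 and 178 in CON vs FS and 234 and 243 in CS vs FS, that is 59.03%, 61.72% and 49.06% rises against 59.36%, 66.15% and 53.53% over all named genes. The highest antisense level of a named gene in CS belonged to 1 of them. The tag of site 1 of Unigene99915_All had 11548 copies in CON and 34647 in CS, and the sense tag of that site 308 and 1064. Unigene8804_All had 356, 11087 and 1474 antisense against 8, 177 and 15 sense copies, so both strands peaked in CS. Unigene44187_All had 5 antisense tags, led by site 3 with 88, 2080 and 461 copies. In Unigene27878_All, with 297, 6951 and 1787 antisense copies at site 1, the sense tag had 3 in CON and 56 in CS.

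Several enzymes of metabolism and of the cell wall had many or dominant antisense tags. Cinnamate-4-hydroxylase (Unigene3004_All), of an early step of phenylpropanoid synthesis, had 1724, 503 and 361 antisense copies at site 5, where the sense tag had 48 in CON and 17 in FS. A beta-D-galactosidase (Unigene21921_All), which removes galactose from cell wall polymers, had 2461, 554 and 785 antisense copies at site 4 and 48 and 7 sense copies in CON and CS. Both were highest in CON. A class I chitinase (Unigene74953_All), a defence enzyme that cuts chitin, and a gene with a beta-expansin type pollen allergen as best hit (Unigene61801_All) each had 4 antisense tags, and both were led by the sense strand. The chitinase had 177 antisense copies in CS at site 3 and 1634 sense copies at site 2. The allergen-like gene had 307 antisense copies in CS at site 6 and 1829 sense copies at site 1. A pyridoxine biosynthesis gene (Unigene30764_All) stood at the low end of the ratios, with 30 antisense against 2061 sense copies in CON.

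Some of the largest changes of single antisense tags exceeded those of the sense tags beside them. UDP-glucuronosyltransferase (Unigene20113_All), which attaches sugar acid groups to small molecules, had 26, 3052 and 2382 antisense copies at site 3. The sense tag of that site had 44, 93 and 196. Antisense rose 113-fold in CON vs CS (log2 6.82, interval 6.27 to 7.44) and sense 2.04-fold (log2 1.03, interval 0.49 to 1.58), intervals that do not overlap. The GCIP-interacting family gene (Unigene71385_All) had 11, 13 and 366 antisense copies, so it was high in FS alone, while its sense tag had 16, 52 and 125 and so also rose in CON vs FS, by 2.92 on the log2 scale against 5.01. Unigene53044_All was high in CS alone, with 35, 850 and 33 copies at site 4. It had no listed sense tag, but its sense sum in the gene table also peaked in CS, with 0, 44 and 3 copies.

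Among named tags with at least 10 copies in the lower library, falls in CON vs CS were led by Unigene16815_All, of unknown function, with 1075 antisense copies in CON, 21 in CS and 479 in FS (log2 ratio of -5.73 in CON vs CS, interval -6.43 to -5.11). The sense tag there had 28 copies in CON and 4 in CS. Unigene72126_All had 605, 28 and 56 copies at site 2, the lowest log2 ratio of such tags in CON vs FS (-3.48, interval -3.9 to -3.08). Unigene114497_All had 529, 26 and 760 copies at site 3 and the steepest rise of such tags in CS vs FS (4.88, interval 4.32 to 5.51). Its sense tag followed with 96, 15 and 155. Unigene22984_All had 74, 233 and 12 antisense copies, against 1092, 8562 and 1042 sense copies.

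Opposite movement of the strands was found mainly in setups with FS. The clearest case was Unigene48299_All, a predicted protein. At site 1 the antisense tag had 200 copies in CON, 115 in CS and 20 in FS, and the sense tag 275, 136 and 3682. Antisense fell by 3.36 on the log2 scale in CON vs FS (interval of the ratio -4.11 to -2.7), while sense rose by 3.7 (interval 3.52 to 3.88). At site 2, where antisense led with 6413, 2821 and 3091 copies against 298, 230 and 91, both strands were lower in FS than in CON. Endo-1,3(4)-beta-glucanase (Unigene33022_All), a cell wall enzyme, had 99, 69 and 25 antisense copies at site 3 and 10, 13 and 45 sense copies at site 2. A sulfate/bicarbonate/oxalate exchanger (Unigene43082_All) had 11, 5 and 43 antisense copies and 80, 16 and 21 sense copies. Unigene474_All had 294, 630 and 127 antisense copies at site 11 and 12, 26 and 201 sense copies at site 10. Unigene34301_All had 52, 43 and 203 antisense copies at site 5 and 246, 150 and 27 sense copies at site 2. Its site 3 had more sense copies, 3521 in CON and 1448 in FS. The antisense tag there had 218 copies in CON, 99 in CS and no count in FS.

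In CON vs CS, where opposite pairs were few, the 3 named with at least 10 copies in the lower library on each strand changed less. Unigene21831_All had 65 antisense copies in CON and 25 in CS at site 7, and 147 and 456 sense copies at site 8. The sense tag of site 5 went the way of the antisense tag, from 31 to 5 copies. Unigene10832_All had 227 and 102 antisense copies at site 8 and 292 and 1373 sense copies at site 11, but its antisense tag of site 11 rose from 46 to 563. The AP-2 complex subunit beta-1 gene (Unigene38959_All), part of a coat that takes up membrane vesicles, had 230 and 502 antisense and 109 and 48 sense copies at site 1. A larger opposite change was seen below that limit of copies in Unigene26182_All, a hypothetical protein chosen once its values were known, with 5 antisense copies in CON and 43 in CS and 36 and 8 sense copies at site 1.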

How the data were processed

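Leaf DeepSAGE libraries of CON, CS and FS were used, 1 per condition, grouped by the treatment in the labels. The authors removed adaptors, low quality reads and tags with under 2 copies, and mapped tags to reference genes (at most 1 mismatch by the methods, and every listed match perfect). Bowtie 0.12.3 is named in the submitters' processing notes without settings. The counts deposited by the authors give copies of each distinct tag, or summed per gene. The deposited TPM values scale those counts to 1000000 clean tags, with 0 written as 0.01, and served only to find the totals (11566380, 12010123 and 11908614). The deposited log2 ratios, p-values and FDR are the authors' own comparisons and were not used. Rows with no gene name did not enter gene sums.

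Ratios, shares and exact 95% intervals were computed from counts with Python 3.11.15, numpy 2.4.6, pandas 2.3.3 and scipy 1.17.1, a count of 0 being put at 3 copies. The intervals were tested on counts simulated with counting error alone, the error they assume. That test does not cover spread between libraries. No p-value was computed, as each condition had 1 library. Genes were named by a rule: the 10 with most antisense tags, the 5 with the highest level per library, the 2 largest rises and falls and the 3 clearest opposite pairs per comparison (at least 10 copies in the lower library), the 3 highest and lowest strand ratios per library (at least 30 copies on each strand), and the gene with most antisense tags of each of 13 keyword lists. Other genes, marked as such, were picked with their values known. Members and lists were chosen with earlier results of these data known, and 2 lists were added later. Alternatives were other copy limits, tag sets, E-value limits, sense sources and scaling. No reference sequence was used, so coordinates, exons and gene lengths are not given.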

Additional observations from a re-analysis of the deposited data

Results flagged for a closer look

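Data outside the comparisons also held strong signals. The 146 antisense tags that match several genes were left out, because their gene cannot be named. The most abundant of them had 14384 copies in CS, 2936 in CON and 3582 in FS, and together they held 0.157%, 0.246% and 0.13% of the clean tags of CON, CS and FS. The 14909 tags that match no gene have no strand. The most abundant had 94832 copies in CON, 37866 in CS and 90182 in FS, and together they held 21.6%, 23.7% and 24.8% of the clean tags.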

How the results depend on the processing

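The antisense share stayed at 47.2% when tags with under 30 copies were left out, and was 27.5%, 23.8% and 23.4% in named genes (CON vs CS, CON vs FS, CS vs FS) and 28.1%, 23.9% and 23.2% in those with an E-value of at most 1e-20, where the naming rule selects genes with a sense signal. The share of rises was 64.4%, 65.5% and 55.2% for log2 ratios of at least 2. In CON vs FS and CS vs FS it was 44.4% and 44.8% without tags at 0 in 1 library, and 45.5% in CON vs FS with at least 30 copies. Rescaling so that the median of all listed tags was 0 gave 79.8%, 80.3% and 26.4%, over a smaller set of 2389, 2302 and 2785 antisense tags. The tables hold no tag near 0, so that median sat at the edge of 1 side (-1.03, -1.04 and 1.05 on the log2 scale), and the shift moved 51 of 54 values of single named tags beyond their interval and reversed none. Antisense was higher in 54% of genes in CON and 53.9% in CS when sense copies came from the gene table, genes with no listed sense tag included, and in 47.2% in CS and 41.4% in FS without those genes (both chosen after seeing the data). The share of antisense tags at site 1 was 37.2% by the most abundant tag of each gene and 18.8% in genes with at least 2 known positions. The other 27 of 48 alternative values stayed within the interval of the value reported or, for counts of lists, within 1.5-fold. Restriction to perfect matches could not be run, as every listed match was perfect. No paired analysis was possible because each condition had 1 library. Depth limits what is seen at 0, where up to 3 copies cannot be told from none, and tags that changed by under 2-fold were not analysed here.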
